A study of Mus musculus with 6 samples.

Results

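Setd8 and 9 genes that act with it were followed through 6 count tables of erythroblasts, nucleated mouse cells that mature into red cells. The genes were chosen by name. They were the H4K20 methyltransferases Setd8, Suv420h1 and Suv420h2, the demethylase Phf8, the reader L3mbtl3, and Dtl, Cul4a, Cul4b, Ddb1 and Skp2, which encode parts of ubiquitin ligases that degrade Setd8. All 10 were among the 23284 gene symbols of every table, and all 10 were among the 10512 genes with enough reads to be tested.

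Setd8, now also named Kmt5a, places a single methyl group on H4K20, a lysine in the tail of histone H4, and Suv420h1 and Suv420h2 (Kmt5b and Kmt5c) add further methyl groups to that product. The mark is tied to replication licensing, chromatin compaction and mitosis. The Setd8 protein is held to a narrow part of the cell cycle by CRL4-Cdt2, a ligase in which the cullins Cul4a or Cul4b carry the adaptor Ddb1 and the receptor Cdt2, the product of Dtl. That ligase recognises its substrates when they are bound to the sliding clamp PCNA on chromatin. Skp2 is the receptor of a related ligase, SCF-Skp2.

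The Setd8 null group held 3 libraries of the genotype SETD8fl/fl EpoR Cre. The control group held 3 libraries, of which replicates 1 and 3 were Setd8 +/+ EpoRCre and replicate 2 was Setd8 fl/fl EpoR WT. The Cre recombinase, which the label ties to the erythropoietin receptor gene Epor, was thus carried by every null library and by control replicates 1 and 3, and control replicate 2 had the floxed alleles without it. All embryos were C57BL/6 at day E10.5, and the sort took live cells bearing both Ter119, a surface antigen of red cells, and CD71, the transferrin receptor. The labels name fetal liver as the source and the design text names fetal blood. The labels do not say whether a library came from 1 embryo or a pool, and the spread behind each p-value is that between libraries and may be technical in part. The comparison asked what loss of Setd8 does to the transcripts of these cells.

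Gene counts summed to between 15203019 and 21381086 in the null libraries and between 7756940 and 21434719 in the controls. The titles of null replicate 1 and control replicates 1 and 2 carry no trailing letter (the unlettered set), and those of null replicates 2 and 3 and control replicate 3 carry one (the lettered set). The labels do not explain the letter, and 28.5% of tested genes differed between the sets with group in the model, so ratios below are adjusted for the set unless stated. Markers of the red cell lineage were detected in all libraries, with Slc4a1, which encodes the anion exchanger, at 1103 to 1735 CPM in null and 1802 to 1917 CPM in control libraries (CPM is the count divided by the library total, in units of 1000000 reads, with totals scaled by TMM). Klf1, another of them, followed the title set. It was at 75.2 CPM in null replicate 1 and 87.6 and 66.9 CPM in control replicates 1 and 2. In the lettered set it was at 543 and 604 CPM in null replicates 2 and 3 and 715 CPM in control replicate 3. Of 12 red cell markers 3 were lower in null cells (Tfrc, Epor and Hba-x) and 0 higher, where 4.16% of all tested genes were lower and 8.65% higher. Epor, to which the label ties Cre, was at 34.5, 91.3 and 84.6 CPM in null replicates 1 to 3. It was at 52.3 and 158 CPM in control replicates 1 and 3, and at 118 CPM in control replicate 2, which had no Cre. An effect of Cre on the reads of Epor was not tested. Of 8 macrophage markers 3 were higher (Cd68, Csf1r and C1qb), and the summed level of the 8 was 30.5 to 87.7 CPM in null and 1.81 to 9.72 CPM in control libraries. Of 6 megakaryocyte markers 2 were higher, Itga2b and Itgb3 (sums of 88.6 to 136 CPM in null and 27.1 to 43.3 CPM in control libraries). Gp9, which did not pass, lay the other way, at 3.74, 4.47 and 3.98 CPM in null and 6.08, 5.38 and 4.60 CPM in control libraries. Pf4 was at 0.175, 7.96 and 9.41 CPM in null and 1.19, 0 and 4.19 CPM in control libraries. Ppbp was at 0 in all but control replicate 3. Of 6 endothelial markers 2 were higher (sums of 5.74 to 20.04 CPM in null and 0.3195 to 1.49 CPM in control libraries). The defining macrophage gene Emr1 was at 0, 0.359 and 2.58 CPM in null replicates 1 to 3 and at 0 in all 3 controls. The endothelial gene Cdh5 was at 0 in all but null replicate 3, and Alb, Fgb and Dcn were at 0 in all 6. Hepatocyte and mesenchymal markers summed to at most 3.86 CPM in any library. The part of these cells in the results below was not tested, and in bulk RNA fewer cells of a type and less RNA per cell cannot be told apart.

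The promoters annotated at the most upstream start of Setd8, Suv420h2, Dtl and Skp2 are printed as context for these genes. Of them Setd8, Suv420h2 and Skp2 passed the main test described below, and Dtl did not. RefSeq lists 3 starts for Setd8 and 2 for Skp2. The windows run from 250 bases before to 50 bases after the RefSeq start (GRCm38.p6), on the strand of the gene. Capitals mark CCAAT boxes, and E2F motifs spelled TTTCCCGC or TTTGGCGC. Both strands were searched, and the GATA motif, spelled AGATAA, was searched as well. No marked motif overlaps another.
Setd8, chr5:124439680-124439979, plus strand: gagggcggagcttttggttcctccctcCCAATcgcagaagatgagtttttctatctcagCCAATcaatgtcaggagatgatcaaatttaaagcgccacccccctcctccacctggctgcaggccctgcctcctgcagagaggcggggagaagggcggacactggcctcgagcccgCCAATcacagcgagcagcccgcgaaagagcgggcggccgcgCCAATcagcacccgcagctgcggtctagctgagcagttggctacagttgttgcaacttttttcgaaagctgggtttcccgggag
Suv420h2, chr7:4739877-4740176, plus strand: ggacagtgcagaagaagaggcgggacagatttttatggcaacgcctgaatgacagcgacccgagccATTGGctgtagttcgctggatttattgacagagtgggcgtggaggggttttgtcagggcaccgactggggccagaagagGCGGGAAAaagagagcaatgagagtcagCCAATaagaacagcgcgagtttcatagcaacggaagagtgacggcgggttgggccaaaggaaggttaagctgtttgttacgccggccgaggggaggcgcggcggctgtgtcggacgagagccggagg
Dtl, chr1:191575495-191575794, minus strand: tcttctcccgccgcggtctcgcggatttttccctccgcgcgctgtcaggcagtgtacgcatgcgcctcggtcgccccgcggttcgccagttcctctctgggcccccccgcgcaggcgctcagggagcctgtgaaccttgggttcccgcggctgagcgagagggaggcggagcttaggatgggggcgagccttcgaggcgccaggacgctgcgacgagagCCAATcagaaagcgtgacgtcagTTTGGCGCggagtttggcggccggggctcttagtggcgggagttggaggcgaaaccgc
Skp2, chr15:9155376-9155675, minus strand: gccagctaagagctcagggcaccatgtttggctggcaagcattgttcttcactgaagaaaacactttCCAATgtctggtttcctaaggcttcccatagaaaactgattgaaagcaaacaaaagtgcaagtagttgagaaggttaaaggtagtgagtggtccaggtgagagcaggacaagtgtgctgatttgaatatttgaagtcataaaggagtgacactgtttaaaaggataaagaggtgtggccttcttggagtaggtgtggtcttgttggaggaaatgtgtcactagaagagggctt

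The Setd8 window held 4 CCAAT boxes, first bases at -223, -191, -75 and -34 from the start, all on the gene's strand. E2F letters were found in the windows of Suv420h2 (first base at -105, opposite strand) and Dtl (at -8), and in no other of the 15 windows annotated for the 10 genes. Over all 32851 RefSeq windows of this length, 1.57% held the E2F letters, 37.4% a CCAAT box and 11.2% the GATA letters. CCAAT boxes lay in 8 of the 15 windows and GATA letters in 1, that of Cul4b. A match is a description of letters and no evidence of binding, and which of several annotated starts was used is not resolved by gene counts.

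Across the 10 genes, 1 rose and 2 fell in Setd8 null cells by edgeR's quasi-likelihood test with the title set as a term (adjusted p under 0.05, Benjamini-Hochberg over all tested genes). Suv420h2 rose, and Setd8 and Skp2 fell. Of all tested genes 8.65% rose and 4.16% fell in this fit, so the number of higher members was close to the background. The median log2 ratio of null to control was 0.057 for the members and 0.044 for the 10512 genes tested. With group as the only term 0 of the 10 passed at an adjusted p under 0.05, where 1.15% of all tested genes passed in either direction. In that fit Suv420h2 and Skp2 had an unadjusted p under 0.05. The share of all tested genes at that unadjusted threshold was not counted. Without control replicate 3, 0 rose and only Dtl fell, and the member counts without each other library lay within 0 to 1 higher and 1 to 3 lower.

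**Figure D1:**
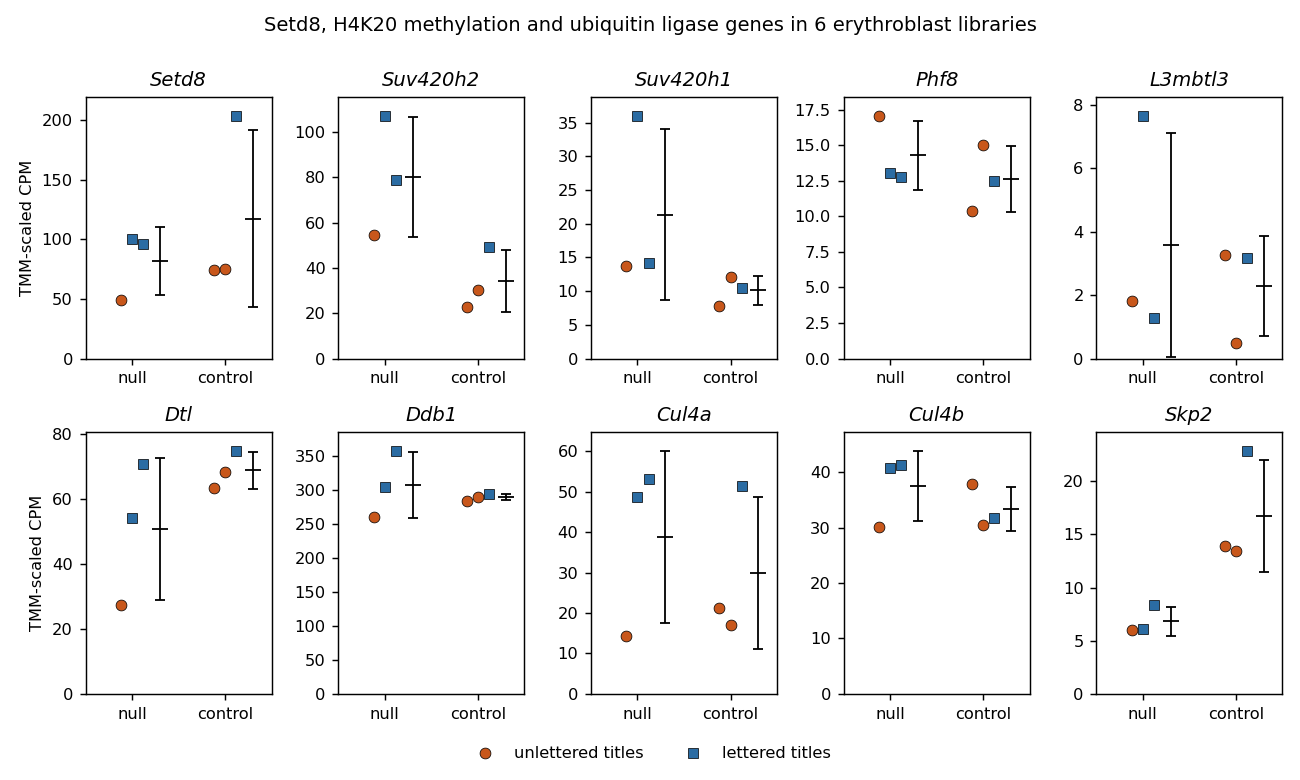
TMM-scaled CPM (vertical axes, from 0) of the 10 genes in the 3 Setd8 null and 3 control libraries, 1 point per library, with the mean and SD of each group as a bar to the right of its points. Skp2 was lower in every null library than in every control, and Suv420h2 and Suv420h1 were higher; Setd8 and Cul4a lay higher in the lettered set (squares) of both groups.

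Setd8, the targeted gene, was still counted in every null library, and at a lower level than in the controls of the same title set. In the unlettered set it stood at 48.9 CPM (837 reads) in null replicate 1, against 73.9 and 74.8 CPM (499 and 1405 reads) in control replicates 1 and 2. In the lettered set it stood at 100 and 96.3 CPM (1953 and 1864 reads) in null replicates 2 and 3, against 203 CPM (4375 reads) in control replicate 3. The null libraries thus held 65.8%, 49.3% and 47.4% of the mean control level of their own set, while the lettered null libraries lay above both unlettered controls, so that the groups overlap as a whole. The controls of the unlettered set, 1 with Cre and wild-type alleles and 1 with floxed alleles and no Cre, differed by less than 1 CPM.

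Adjusted for the set, Setd8 fell, with a log2 ratio of -0.83 (SE 0.17, 95% interval -1.20 to -0.46, adjusted p = 0.00911, edgeR quasi-likelihood). With group alone its log2 ratio was -0.52 (adjusted p = 0.702). Without control replicate 3, the only control of the lettered set, it was -0.62 (adjusted p = 0.134) and no longer passed; without any other single library it passed. Counts cover the whole gene, and the labels do not say which exons are flanked by loxP, so the reads in null cells need not come from intact transcript. That some cells kept an intact allele was not tested.

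Suv420h2, which extends the methylation of H4K20 that Setd8 begins, stood at 54.4 CPM in null replicate 1 and 107 and 78.8 CPM in null replicates 2 and 3, against 22.7 and 30.2 CPM in control replicates 1 and 2 and 49.3 CPM in control replicate 3. All 3 null libraries lay above all 3 controls, although null replicate 1 exceeded control replicate 3 of the other set by little. Within its set each null library held 206%, 217% and 160% of the control mean. The gene rose by 0.97 on the log2 scale (SE 0.22, 95% interval 0.50 to 1.45, adjusted p = 0.0135), and lost its call in 6 of 13 alternatives, among them the fit without null replicate 1 (adjusted p = 0.192), null replicate 2 (0.0713), control replicate 1 (0.0536) and control replicate 3 (0.0709).

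Suv420h1, the paralogue with the same reaction, was at 13.8, 36.0 and 14.2 CPM in null replicates 1 to 3 and at 7.85, 12.03 and 10.46 CPM in control replicates 1 to 3. The null libraries were all higher than the controls, 2 of them by little and null replicate 2 by a wide margin. The gene did not pass (log2 ratio 0.86, 95% interval -0.10 to 1.83, adjusted p = 0.232), and without null replicate 2 the ratio was 0.40. In the annotation used here (GENCODE M21), 927 of 14752 exon bases of Suv420h1 overlap the antisense gene Gm16066, whose reads cannot be told apart where the counting ignores strand. All null libraries above all controls was seen for 14.9% of tested genes.

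The demethylase and the reader did not pass. Phf8, which removes the single methyl group from H4K20 and also acts on histone H3, was at 17.1, 13.0 and 12.8 CPM in null and at 10.4, 15.02 and 12.5 CPM in control libraries, with a log2 ratio of 0.23 (95% interval -0.51 to 0.98, adjusted p = 0.710). L3mbtl3, whose MBT repeats bind lysines with 1 or 2 methyl groups, had 31, 149 and 25 reads in null replicates 1 to 3 and 22, 9 and 68 reads in control replicates 1 to 3. These counts corresponded to 1.81, 7.65 and 1.29 CPM in null and 3.26, 0.479 and 3.16 CPM in control libraries. Null replicate 2 stood above the rest for L3mbtl3, and the log2 ratio of 0.26 had a 95% interval of -1.95 to 2.48, which holds large changes in either direction.

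Phf8 and the cullin Cul4b lie on the X chromosome, and the groups differed in sex markers. The Y-linked transcripts Ddx3y, Eif2s3y, Kdm5d and Uty summed to 120 to 164 CPM in the null libraries and to 117, 0.479 and 0 CPM in control replicates 1 to 3, where Xist was at 0.741, 208 and 104 CPM. With title set and sex as terms, Phf8 had a log2 ratio of 0.68 (adjusted p = 0.559), Cul4b one of -0.22 (adjusted p = 0.808) and Setd8 one of -0.72 (adjusted p = 0.234), and 0 of the 10 genes passed. That fit rests on control replicate 1, the only control with Y-linked transcripts and the shallowest library, and 2.12% of all tested genes passed in it.

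Dtl, which encodes the receptor Cdt2, had lower values in null libraries than in the controls of their own set, and did not pass over both sets. It stood at 27.2 CPM in null replicate 1, against 63.1 and 68.3 CPM in control replicates 1 and 2, and at 54.0 and 70.7 CPM in null replicates 2 and 3, against 74.5 CPM in control replicate 3. The null libraries ran from 41.4% to 94.8% of the control mean of their own set, and null replicate 3 lay above both unlettered controls. Set-adjusted, the log2 ratio was -0.76 (SE 0.26, adjusted p = 0.0840), which did not pass. Without null replicate 1 it was -0.27. Each title set holds 1 library of 1 of the groups, so within-set ratios take their spread from the replicates in the other arms, and the lone library is assumed to vary like them. On that assumption the log2 ratio of Dtl was -1.27 within the unlettered set, where null replicate 1 is the lone library (SE 0.29, adjusted p = 0.0295, with 8.08% of all tested genes passing in either direction). Within the lettered set it was -0.26 (SE 0.27, adjusted p = 0.699). The difference of 1.01 between these ratios did not pass over all genes (SE 0.40, unadjusted p = 0.0287, adjusted p = 0.652).

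The core of the ligase showed no difference that passed. Ddb1, the adaptor that links receptor to cullin, had the highest level of the 10 genes, at 260, 305 and 357 CPM in null and 285, 290 and 294 CPM in control libraries. Its log2 ratio was 0.012 (SE 0.16), with a 95% interval of -0.33 to 0.36, so that a change of 2-fold lies outside the interval. In the annotation 328 of 6409 exon bases of Ddb1 overlap Tkfc on the opposite strand. Cul4a, the scaffold, was at 14.4, 48.7 and 53.2 CPM in null and 21.3, 17.1 and 51.4 CPM in control libraries, and its log2 ratio was -0.21 (95% interval -0.75 to 0.33, adjusted p = 0.640). Its levels followed the title set and not the group. Cul4b, the X-linked scaffold, was at 30.2, 40.8 and 41.4 CPM in null and 37.9, 30.4 and 31.7 CPM in control libraries (log2 ratio 0.10, 95% interval -0.45 to 0.65, adjusted p = 0.837).

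Skp2, the receptor that brings Cdkn1b and other cell cycle proteins to the SCF ligase, fell in null cells. It was at 6.02, 6.06 and 8.37 CPM (103, 118 and 162 reads) in null replicates 1 to 3, against 13.9, 13.5 and 22.8 CPM (94, 253 and 490 reads) in control replicates 1 to 3. Every null library lay below every control, which was seen for 9.16% of tested genes, and the null libraries held 43.9%, 26.6% and 36.7% of the control mean of their own set. Its log2 ratio was -1.43 (SE 0.36, 95% interval -2.22 to -0.63, adjusted p = 0.0254), the largest change in size among the 10 genes. The direction held in all 13 alternatives (-1.67 to -1.20), but it passed in only 1 of the 6 fits without a library, the one without null replicate 3 (adjusted p 0.0256 to 0.273).

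**Figure D2:**
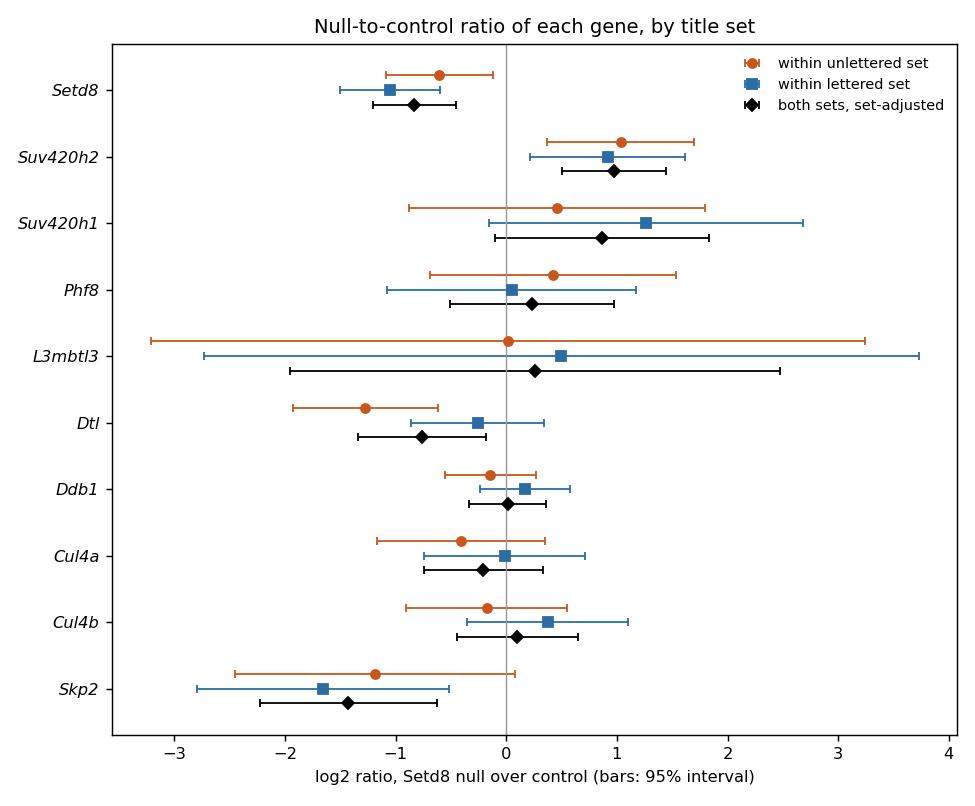
Log2 ratio of Setd8 null to control (horizontal axis, bars are 95% intervals) for each gene within the unlettered set, within the lettered set, and over both sets with the set as a term. Setd8, Dtl and Skp2 were below 0 and Suv420h2 above 0 in both sets, and Dtl was at -1.27 within unlettered titles and at -0.26 within lettered ones.

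Between the title sets themselves, 3 of the 10 genes were higher in the lettered set and 0 lower, where 17.7% of all tested genes were higher and 10.9% lower. Setd8 was higher by 1.23 (SE 0.17, adjusted p = 0.000209), Cul4a by 1.62 (SE 0.25, adjusted p = 0.000419) and Suv420h2 by 0.83 (SE 0.22, adjusted p = 0.0127), all on the log2 scale. Taken set by set, the null libraries lay below the controls of their set in both sets for Setd8, Dtl and Skp2, and above them in both for Suv420h1, Suv420h2 and Phf8; the shares over all tested genes were 21.5% below and 25.7% above. Within the lettered set the log2 ratio of Setd8 was -1.05 (SE 0.20, adjusted p = 0.0294), where 2.38% of tested genes passed and 1 member did. That value sets both lettered null libraries against control replicate 3 alone, the library with the highest Setd8, which is assumed to vary like the replicates of the other arms. The log2 ratios of the 2 sets did not differ by a test that passed for any of the 10 genes (edgeR interaction; 1 gene, Dtl, at an unadjusted p under 0.05), and 0.00951% of all tested genes passed it.

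Ratios of counts between members within a library need no scaling between libraries, and were computed for 6 pairs chosen with the values known, so they are given without a test. Suv420h2 had 1.11, 1.07 and 0.818 reads per read of Setd8 in null replicates 1 to 3, against 0.307, 0.404 and 0.242 in control replicates 1 to 3. The lowest null ratio (exact 95% interval 0.764 to 0.875) lay above the highest control ratio (0.365 to 0.445), and these intervals cover counting error only. In null cells the reads of the 2 methyltransferases were thus near parity, and in controls Setd8 had more than 2 reads for each of Suv420h2. Skp2 had 0.0232, 0.0199 and 0.0235 reads per read of Ddb1 in null replicates, against 0.0489, 0.0465 and 0.0775 in control replicates. For Dtl per Ddb1 the values were 0.105, 0.177 and 0.198 in null and 0.222, 0.236 and 0.253 in control replicates. The groups did not overlap in these ratios to Ddb1 or in that of Suv420h2 to Setd8. How many other gene pairs separate the groups was not counted. The level of Dtl itself overlapped, with null replicate 3 at 70.7 CPM above control replicates 1 and 2 at 63.1 and 68.3 CPM. The ratio of Cul4a to Cul4b followed the title set, at 0.477 in null replicate 1 against 0.563 and 0.562 in control replicates 1 and 2, and at 1.20 and 1.29 in null replicates 2 and 3 against 1.62 in control replicate 3. The groups also overlapped for the other pairs. Suv420h1 had 0.282, 0.359 and 0.148 reads per read of Setd8 in null replicates, against 0.106, 0.161 and 0.0514 in control replicates. Suv420h2 had 3.95, 2.98 and 5.54 reads per read of Suv420h1 in null replicates, against 2.89, 2.51 and 4.71 in control replicates.

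**Figure D3:**
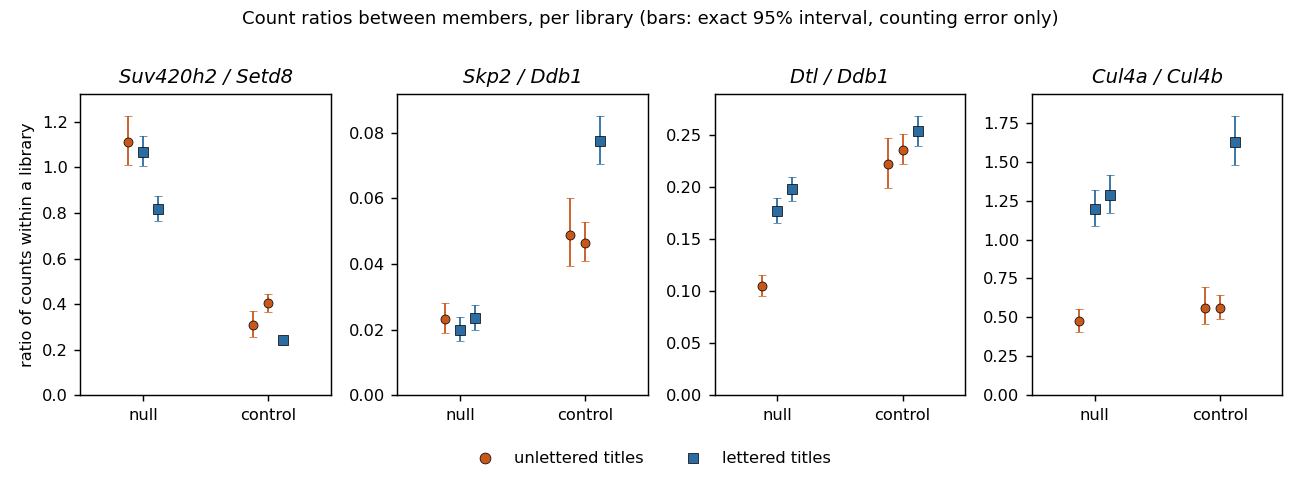
Ratio of counts (vertical axes, from 0) between pairs of the genes within each library, with exact 95% intervals for counting error. The ratio of Suv420h2 to Setd8 was 0.818 to 1.11 in null libraries and 0.242 to 0.404 in controls, whereas Cul4a to Cul4b separated the lettered from the unlettered set.

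Levels per length, as CPM per kilobase of annotated exon, set Ddb1 at the top in both groups, at 47.9 ± 7.58 in null and 45.2 ± 0.747 in control libraries (SD, n = 3 each). Next came Suv420h2 (20.02 ± 6.59) and Setd8 (15.4 ± 5.38) in null cells, and Setd8 (22.1 ± 14.0), Cul4b (8.61 ± 1.04) and Suv420h2 (8.51 ± 3.42) in controls. The means of Suv420h2 and Setd8 in null cells, and of Cul4b and Suv420h2 in controls, differed by less than either SD. Library by library, Suv420h2 lay above Setd8 in null replicates 1 to 3 (13.6, 26.8 and 19.7 against 9.22, 18.9 and 18.15). Cul4b (9.67 ± 1.63), Cul4a (6.05 ± 3.31) and Dtl (3.69 ± 1.60) followed in null cells, and Dtl (5.01 ± 0.416) and Cul4a (4.68 ± 2.92) in controls. The means of Cul4a and Dtl differed by less than the SD of Cul4a in both groups, whereas Cul4b and Cul4a in null cells, and Suv420h2 and Dtl in controls, differed by more than either SD. Cul4a lay above Dtl in each null library (2.24, 7.60 and 8.30 against 1.99, 3.94 and 5.15). In control replicates 1 to 3 the values were 3.33, 2.67 and 8.03 for Cul4a and 4.61, 4.98 and 5.44 for Dtl. Phf8, Suv420h1, Skp2 and L3mbtl3 were lowest in null cells, at 1.53 ± 0.258, 1.45 ± 0.861, 0.866 ± 0.171 and 0.369 ± 0.364, and Skp2, Phf8, Suv420h1 and L3mbtl3 in controls, at 2.13 ± 0.667, 1.35 ± 0.250, 0.686 ± 0.143 and 0.237 ± 0.163. Lengths are the joined exons of all annotated transcripts in GENCODE M21, whose build is not the mm9 named for the counts, so a gene with many isoforms such as Suv420h1 may be set too low.

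Further genes of the pathway were taken from 6 lists and tested in the same set-adjusted fit. The counts below at an adjusted p under 0.05 stand against 8.65% of all tested genes higher and 4.16% lower. Those by DESeq2 stand against 1262 tested genes higher and 882 lower by that method. The share of all tested genes at an unadjusted p under 0.05 was not counted. By the edgeR quasi-likelihood test Dtl (unadjusted p = 0.0146) had rank 1824 of 10512 genes by p, and Suv420h1 (unadjusted p = 0.0752) rank 3409. The number of tested genes at an unadjusted p under 0.05 thus lay between 1824 and 3409 of 10512. List counts at that threshold are therefore not read as an excess. Among 4 other enzymes of H4K20, 0 rose and 2 fell, and 2 did not pass; with group alone, and with title set and sex, 0 fell. Whsc1, a methyltransferase of histone H3 that has also been tied to H4K20 and had the highest level of the list, stood at 34.2 ± 7.73 CPM in null and 66.1 ± 7.69 CPM in control cells (SD, n = 3 each), with a log2 ratio of -1.02 (SE 0.23, adjusted p = 0.0132). Smyd5, a methyltransferase that can bring H4K20 to its fully methylated form, stood at 18.8 ± 4.07 CPM in null and 45.6 ± 11.9 CPM in control cells (log2 ratio -1.17, SE 0.28, adjusted p = 0.0196). For both genes all null libraries lay below all controls, which was seen for 9.16% of tested genes.

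Among 15 other readers and effectors, 14 were tested, 0 rose and 3 fell, with 6 at an unadjusted p under 0.05. By DESeq2 6 fell, and with group alone, and with title set and sex, 0 fell. Tonsl, which binds the unmethylated residue on new chromatin, stood at 9.92 ± 5.02 CPM in null and 21.2 ± 17.0 CPM in control cells, a log2 ratio of -1.57 (SE 0.31, adjusted p = 0.00782). Mbtd1, an MBT repeat protein, stood at 11.0 ± 1.78 CPM in null and 29.6 ± 4.73 CPM in control cells and fell by 1.31 (SE 0.28, adjusted p = 0.0113). Lbr, the lamin B receptor of the inner nuclear membrane and the highest gene of the list, stood at 204 ± 33.5 CPM in null and 350 ± 68.0 CPM in control cells and fell by 0.65 (SE 0.17, adjusted p = 0.0303). These 14 genes had a median log2 ratio of -0.54, where that of the 10512 genes tested was 0.044. Trp53bp1, a reader of the doubly methylated residue, was at 22.7 ± 1.25 CPM in null and 22.8 ± 2.91 CPM in control cells and did not pass.

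Of 22 genes of the cullin core, its NEDD8 cycle and the COP9 signalosome, 0 passed in either direction (7 at an unadjusted p under 0.05, and 4 lower and 0 higher by DESeq2). Pcna, the clamp, had the highest level, at 357 ± 66.3 CPM in null and 402 ± 25.1 CPM in control cells (log2 ratio -0.12, adjusted p = 0.696). Of 17 other receptors of the same cullins, 1 rose and 0 fell, a share of higher genes below that of all tested genes. The gene was Dcaf4, at 37.2 ± 14.4 CPM in null and 15.9 ± 6.60 CPM in control cells (log2 ratio 1.36, SE 0.32, adjusted p = 0.0177, and 0.242 with group alone). The highest of the list, Dcaf13, was at 63.7 ± 10.2 CPM in null and 98.4 ± 29.0 CPM in control cells and did not pass. Of 15 genes of the SCF and APC/C ligases, their substrates and regulators of Setd8 phosphorylation, 0 passed (3 at an unadjusted p under 0.05, and 1 lower by DESeq2), and the highest, Ccnb1, which encodes cyclin B1, was at 405 ± 62.8 CPM in null and 508 ± 97.4 CPM in control cells.

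Among 6 genes whose proteins CRL4-Cdt2 degrades beside Setd8, 5 were tested, and 3 rose and 1 fell. With group alone, and with title set and sex, 2 rose (Cdkn1a and Ercc5) and 0 fell. Cdkn1a, the inhibitor p21 and a known target of p53, stood at 735 ± 189 CPM in null and 9.69 ± 3.79 CPM in control cells (log2 ratio 6.21, SE 0.35, adjusted p = 1.3e-05). Ercc5, a nuclease of excision repair, stood at 59.9 ± 7.72 CPM in null and 11.3 ± 3.49 CPM in control cells (log2 ratio 2.29, SE 0.28, adjusted p = 0.000407), and Pold4, a subunit of DNA polymerase delta, at 9.37 ± 3.05 CPM in null and 2.58 ± 1.21 CPM in control cells (log2 ratio 2.18, SE 0.56, adjusted p = 0.0264). Chek1, the checkpoint kinase, stood at 26.6 ± 10.4 CPM in null and 51.4 ± 10.7 CPM in control cells and fell by 1.17 (SE 0.31, adjusted p = 0.0301). Cdt1, the licensing factor, was at 25.1, 52.4 and 63.7 CPM in null and 37.5, 24.1 and 67.6 CPM in control libraries and did not pass (log2 ratio -0.25, adjusted p = 0.550), and Tdg had too few reads to be tested. Protein levels, on which this ligase acts, were not measured.

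With 1 library left out, the lower genes numbered 0 to 2 among the other enzymes (0 without null replicate 1 or control replicate 3) and 0 to 5 among the readers (0 without null replicate 1, 5 without null replicate 3). Of the readers named as lower, Lbr passed only without null replicate 3, and Tonsl and Mbtd1 each passed in 4 of these fits. Neither Lbr, Tonsl nor Mbtd1 passed without null replicate 1 or without control replicate 3. Among the other receptors 0 rose without null replicate 1, null replicate 2 or control replicate 3. Among the substrates 2 or 3 rose in each of these fits. The substrate that fell, Chek1, passed only without null replicate 3 or control replicate 3, and Pold4 only without null replicate 3 or control replicate 2.

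**Figure D4:**
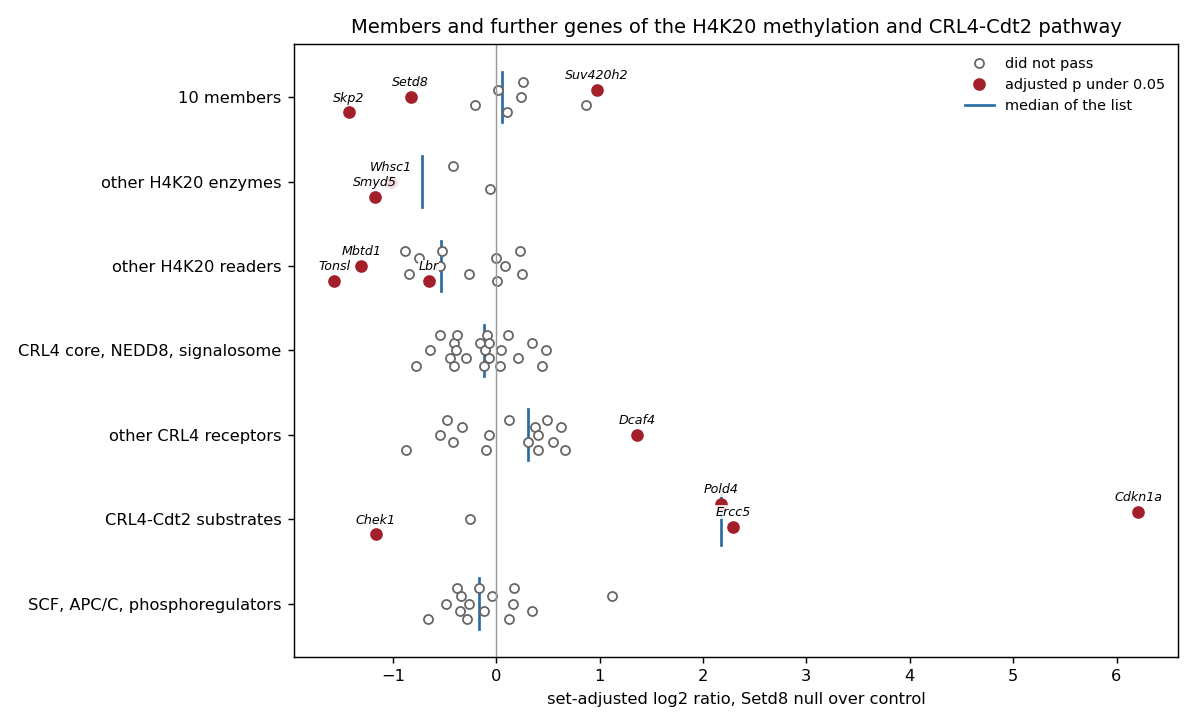
Set-adjusted log2 ratio of Setd8 null to control (horizontal axis) for each tested gene of the 10 members and 6 further lists, with filled points for an adjusted p under 0.05 and a bar at the median of each list. The ratio of Cdkn1a was 6.21, apart from all other genes shown, and no gene of the cullin core or of the SCF and APC/C list passed.

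The profile of Setd8 over the 6 libraries, as log2 CPM centred on its mean, was -0.87, 0.15 and 0.097 in null replicates 1 to 3 and -0.28, -0.27 and 1.17 in control replicates 1 to 3. The 5 tested genes with the smallest root mean square difference from it were Maz, Dek, Rabep1, Tmem185b and Msh6, at 0.124 to 0.131 log2 units. Dek, a chromatin protein, stood at 92.8, 179 and 206 CPM in null and 165, 153 and 356 CPM in control libraries, and Msh6, which recognises DNA mismatches and binds methylated histone H3, at 23.1, 51.8 and 38.4 CPM in null against 37.2, 34.0 and 86.3 CPM in control libraries. Control replicate 3 was the highest library for all 5, as for Setd8, which follows from the choice of genes by likeness to Setd8. Of the other 9 members Dtl lay closest to Setd8 (0.449, rank 821 of 10511 genes) and L3mbtl3 farthest (0.958). The likeness rests on 6 libraries that share the 2 title sets, and part of it is the difference between those sets.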

How the data were processed

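Each library's table, as deposited, lists raw read counts by gene symbol. The submitters' processing notes name HTSeq 0.6.1, TopHat2 2.1.0, Trimmomatic 0.32, FastQC, edgeR and the build mm9, without options or strand setting. There were 25 symbols written as dates, mapped to the March and Sept genes and Sep15, and summary lines naming no gene (reads without a feature were 6.07%, 42.9% and 7.72% of the tables of null replicate 1 and control replicates 1 and 2) were left out. Only the tables of the unlettered set held such lines. No pair of libraries of 1 group was a duplicate (chi-square per degree of freedom 15.7 to 269).

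The fits used edgeR 4.0.16 under R 4.3.3: filterByExpr by group, TMM, estimateDisp, robust glmQLFit and 2-sided glmQLFTest with group and title set as terms (3 residual degrees of freedom), or 1 mean per group and set (2). The SE is the size of the log2 ratio divided by the root of F. DESeq2 1.42.0, group alone (4), other scalings and filters, sex by Y-linked transcripts (sum above 5 CPM) and leaving out each library were alternatives. The script was tested on simulated data. A total of 3 counts corresponds to 0.140 to 0.445 CPM. Likeness used log2(CPM + 0.5). RefSeq promoters matched all 10 genes by symbol.

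Named were all 10 genes; of each further list, genes that passed and the gene with the highest level; and the 5 genes most like Setd8. Trp53bp1 and Cdt1 were named after their values were seen. The members and lists were chosen with earlier results of these data known.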

Additional observations from a re-analysis of the deposited data

How the results depend on the processing

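With group as the only term, 120 tested genes rose and 1 fell, and 0 and 0 of the 10 members; with title set and sex, 161 and 62, and 0 and 0 members. Without a filter on low counts 723 genes fell and by DESeq2 882, against 437, and Dtl passed in both. Leaving out 1 library gave 162 to 869 genes higher and 40 to 734 lower, lowest without null replicate 1 and highest without null replicate 3, and 0 to 1 members higher and 1 to 3 lower. Setd8 kept its direction in all 13 alternatives and passed in 10, Suv420h2 in 13 and 7, Skp2 in 13 and 6. Dtl, which did not pass, passed in 4. Members that did not pass changed sign: Ddb1 to -0.023 with relative log expression factors, -0.039 without globin genes, -0.030 without a filter, -0.023 by DESeq2 and -0.035 with title set and sex; Cul4a to 0.37 with group alone; L3mbtl3 to -1.20 and Cul4b to -0.22 with title set and sex. With 1 library left out Ddb1 ran from -0.16 to 0.16, Cul4b from -0.19 to 0.37 and L3mbtl3 from -0.59 to 1.02. The cause was not tested. No paired analysis was possible because the labels give no replicate numbers that groups share. Null replicate 1 and control replicate 3 are each the only library of their group in their title set, so a fit without either compares the groups in the other set alone. An arm left with 1 library is assumed to vary like the others. L3mbtl3 had the fewest reads of the members, 9 to 149.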
